A study of Mus musculus with 5 samples.

Results

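The genes described here are the inhibitors and activators of the G1 cyclin-dependent kinases (CDKs) in sorted mouse haematopoietic stem cells (HSCs). They were chosen by name: the Cip/Kip inhibitors Cdkn1a, Cdkn1b and Cdkn1c, the INK4 inhibitors Cdkn2c and Cdkn2d, the D cyclins Ccnd1, Ccnd2 and Ccnd3, and the kinases Cdk4 and Cdk6. Of these 10 genes, 9 were found among the 11643 genes of the expression table, and all 9 passed the filter on low values. Cdkn2d was not analysed here. RNA-seq was done on 2 libraries labelled Tle1/3/4-deficient and on 3 control libraries, all of C57BL/6 bone marrow HSCs gated as negative for lineage markers and CD48 and positive for c-Kit, Sca-1 and CD150. The deficient label stands for mice in which Vav-Cre, a recombinase active in all blood cells and not in HSCs alone, was used against floxed Tle1, Tle3 and Tle4. The genotype of the controls is given only as control. Their titles also carry a code beginning with VavC, which the labels do not explain, so whether the controls carried the recombinase is not known here. The labels give no age, no number of mice and no statement that replicates were separate animals. The p-values therefore rest on library-to-library variation that may be only technical.

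In a resting cell the retinoblastoma proteins hold E2F transcription factors inactive. D cyclins, made in response to growth signals, bind CDK4 or CDK6, and the active kinases phosphorylate the retinoblastoma proteins so that the cell can leave G1. INK4 proteins bind CDK4 and CDK6 directly, whereas Cip/Kip proteins bind cyclin-CDK complexes and block CDK2 complexes most strongly. HSCs are mostly quiescent, and p57 (Cdkn1c) is known in mouse HSCs as a major keeper of that state. TLE proteins are co-repressors brought to DNA by partner transcription factors.

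Values are FPKM, fragment counts scaled by transcript length and by library size, so that levels of different genes can be compared. The 10570 genes averaging 1 FPKM or more were tested on log2(FPKM + 1) with limma, and a call needed a Benjamini-Hochberg adjusted p under 0.05 over all of them. That test called 2 genes, 0.0189% of those tested (0.00946% higher and 0.00946% lower), and neither was a member. The table columns summed to 683822 and 599137 FPKM in the libraries labelled deficient and to between 616738 and 650087 FPKM in the controls. Absolute depth is unknown, and relative depth read from low values ranged from 1 in control replicate 1 to 1.46 in control replicate 3. The targeted gene Tle3 went against the label, at 32.3 and 31.6 FPKM in the libraries labelled deficient, against 2.48, 4.97 and 5.61 FPKM in the controls, so every direction below rests on labels that Tle3 does not bear out. Tle4 was at 0.353 and 0.203 FPKM in the libraries labelled deficient, against 5.67, 0.0129 and 5.29 FPKM in the controls. Tle1 was at 2.84 and 4.37 FPKM in the libraries labelled deficient, against 1.83, 0.811 and 3.33 FPKM in the controls. Tle1 and Tle4 were thus low, and for each of them the groups overlapped. A gene-level value can include exons outside a deleted part, so these values do not check the deletion itself.

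Several features of the libraries moved with the labels. The 15 granulocyte and monocyte markers summed to 11257 and 67433 FPKM in the libraries labelled deficient, against 564 to 3046 FPKM in the controls. Of the 15, 11 had groups that did not overlap, all higher, beside 10.2% of all tested genes in that direction. The 12 megakaryocyte and platelet markers summed to 8441 and 3927 FPKM in the libraries labelled deficient, against 737 to 1510 FPKM in the controls. The 8 measured erythroid markers summed to 107 and 572 FPKM in the libraries labelled deficient, against 17.9 to 38.5 FPKM in the controls. No marker on these lists was at 0 in every library, and Ly86, Alas2, Ermap, Selp and Tubb1 were listed at 0 in at least 1. Of the gate's genes, Kit was at 102 FPKM in each deficient-labelled library and at 149 to 185 FPKM in the controls, and Ly6a, which encodes Sca-1, was at 155 and 14.0 FPKM in the libraries labelled deficient, against 57.8 to 199 FPKM in the controls. Slamf1, the gene of CD150, stood at 31.8 and 31.0 FPKM in the libraries labelled deficient, against 14.9 to 24.0 FPKM in the controls, so none of the gate's 3 positive markers was absent. Cd48, the gate's negative marker, was detected in every library, at 7.19 and 23.4 FPKM in those labelled deficient, against 3.22, 4.63 and 13.0 FPKM in the controls. Vpreb1, a pre-B cell gene named after its values were seen, was at 4.70 and 37.1 FPKM in the libraries labelled deficient, against 0, 0 and 0.0794 FPKM in the controls. Cd34 was at 41.7 and 26.5 FPKM in the libraries labelled deficient, against 141 to 210.04 FPKM in the controls. The HSC regulator Mecom was at 7.69 and 2.77 FPKM in the libraries labelled deficient, against 8.36 to 13.3 FPKM in the controls. The part of other cells in the member values was not tested. In such bulk libraries fewer cells of a type and less RNA per cell cannot be told apart.

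The members fell into layers of abundance. Cdk4 and Ccnd3 were highest, with means of 339 and 347 FPKM in the libraries labelled deficient, against 426 and 213 FPKM in the controls, which placed each of them at a percentile rank of 96.0 or more in every library. Cdk4 and Ccnd3 did not differ beyond their spread in the libraries labelled deficient, whereas in the controls every Cdk4 value, the lowest being 393 FPKM, lay above every Ccnd3 value, the highest being 232 FPKM. Ccnd2 came next, with means of 74.1 FPKM in the deficient-labelled and 229 FPKM in the control libraries, and its values overlapped those of Ccnd3 in the controls. Cdk6 averaged 43.3 FPKM in the deficient-labelled and 41.7 FPKM in the control libraries. Cdkn1c averaged 17.1 FPKM in the libraries labelled deficient, below every Cdk6 value there, and 44.6 FPKM in the controls, within the range of Cdk6 there. The order of the p57 and p18 genes differed between groups. Every Cdkn2c value lay below every Cdkn1c value in the controls (highest Cdkn2c 21.6 FPKM, lowest Cdkn1c 41.5 FPKM). In the libraries labelled deficient every Cdkn2c value lay above every Cdkn1c value (lowest Cdkn2c 19.4 FPKM, highest Cdkn1c 18.97 FPKM). Those 2 nearest values were both from replicate 2, where the genes were nearly level. Only replicate 1 set them clearly apart, with Cdkn2c at 32.3 and Cdkn1c at 15.2 FPKM. Cdkn2c and Ccnd1 overlapped each other in the controls, with means of 15.0 and 12.2 FPKM, and not in the libraries labelled deficient, with means of 25.9 and 12.6 FPKM. Cdkn1a and Cdkn1b were lowest and overlapped each other in both groups, with means of 9.29 and 6.61 FPKM in the deficient-labelled and 2.86 and 2.88 FPKM in the control libraries.

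**Figure D1:**
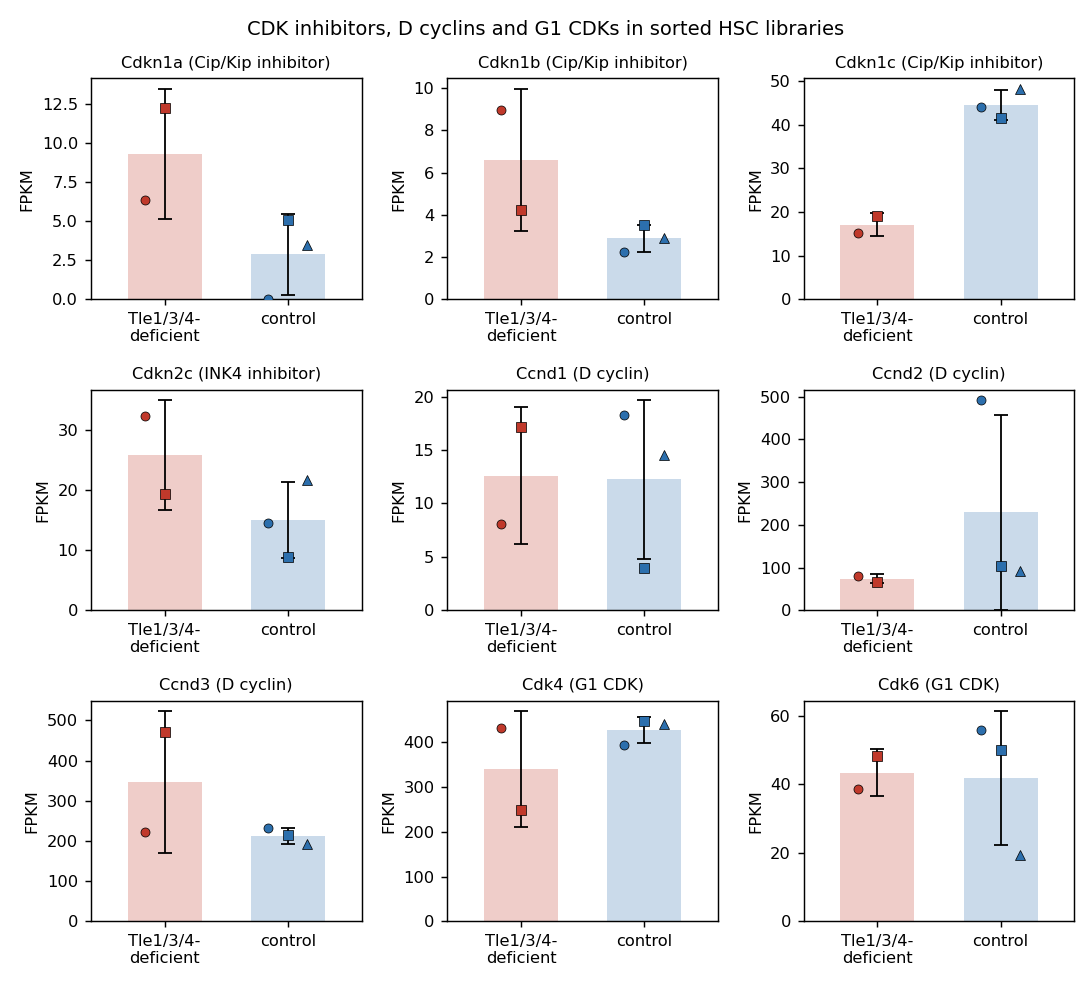
FPKM of the 9 measured members in each library, with deficient-labelled libraries in red and controls in blue. Bars are group means, error bars are SD (n = 2 and 3), and circles, squares and triangles are replicates 1, 2 and 3. Cdkn1c sat at 15.2 and 18.97 FPKM in the libraries labelled deficient, against 41.5 FPKM or more in every control.

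The Cip/Kip inhibitors did not lie on the same side of the controls: Cdkn1c lay below every control and Cdkn1a and Cdkn1b lay above every control. Cdkn1c, which encodes p57, was at 15.2 and 18.97 FPKM in the libraries labelled deficient, against 44.0, 41.5 and 48.2 FPKM in the controls. The nearest pair of values from the 2 groups was 22.5 FPKM apart, and the SD within groups was 2.65 FPKM in the libraries labelled deficient, against 3.39 FPKM in the controls. The mean was thus 2.61-fold lower in the libraries labelled deficient. On the log2(FPKM + 1) scale the difference was -1.34 (SE 0.35, 95% CI -2.16 to -0.51), with an unadjusted p of 0.006 and an adjusted p of 0.433 (limma). The gene ranked 142 of 10570 by p-value and did not pass over all genes. An unadjusted p under 0.05 was reached by 8.45% of all genes (3.26% higher and 5.18% lower) and by 1 of the 9 members, Cdkn1c. Over leave-one-out runs its log2 fold change stayed between -1.49 and -1.19.

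Cdkn1a encodes p21, the CDK inhibitor induced by p53. It was at 6.37 and 12.2 FPKM in the libraries labelled deficient, against 0.0382, 5.09 and 3.46 FPKM in the controls. The deficient-labelled values lay above every control, by 1.28 FPKM at the closest, and control replicate 1 was close to 0. The log2 fold change of 1.70 (SE 0.95, 95% CI -0.53 to 3.92) did not pass (limma, adjusted p = 0.663). Without control replicate 1 it was 0.92. Trp53, the gene of p53 itself, was at 247 and 209 FPKM in the libraries labelled deficient, against 349, 268 and 275 FPKM in the controls (log2 fold change -0.38, limma adjusted p = 0.717).

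Cdkn1b encodes p27, an inhibitor of cyclin E-CDK2 that is controlled largely by protein turnover. It was at 8.98 and 4.23 FPKM in the libraries labelled deficient, against 2.22, 3.51 and 2.92 FPKM in the controls. Deficient-labelled replicate 2 stood only 0.712 FPKM above the highest control, and replicate 1 was farther above it. The log2 fold change was 0.91 (SE 0.72, 95% CI -0.77 to 2.58; limma, adjusted p = 0.739), with 0.44 when deficient-labelled replicate 1 was left out and 1.38 when replicate 2 was.

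Across the 9 members the groups did not overlap for 4, namely Cdkn1a and Cdkn1b (higher) and Cdkn1c and Ccnd2 (lower). Over all tested genes the groups did not overlap for 26.1%, 10.2% in the higher and 15.9% in the lower direction. With 9 genes such a share is not a result about the members as a set. Their median log2 fold change was 0.18, beside -0.10 for all tested genes. Without 1 library the members' median lay between 0.02 (without deficient-labelled replicate 2) and 0.55 (without control replicate 1). Median-of-ratios scaling moved the median of all genes to 0.02 and that of the members to 0.30, and each member kept its direction under it.

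**Figure D2:**
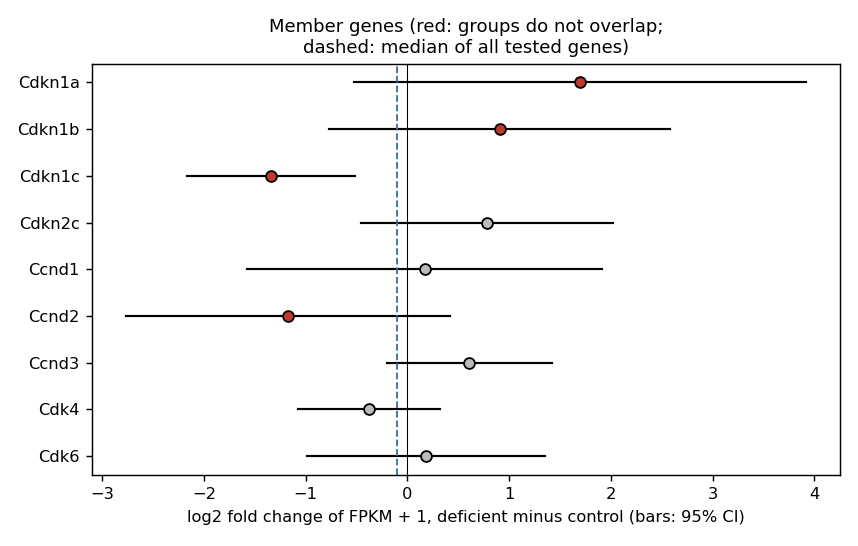
Log2 fold change of FPKM + 1, deficient-labelled minus control, for each measured member, with 95% confidence intervals from limma. Red points are members whose groups do not overlap, and the dashed line is the median of all tested genes at -0.10. The interval of Cdkn1c, from -2.16 to -0.51, was the only one of the 9 that did not reach 0.

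A share within a library does not depend on how the library was scaled. Cdkn1c made up 49.8% and 53.6% of the summed Cip/Kip FPKM in the libraries labelled deficient, against 95.1%, 82.8% and 88.3% in the controls. The means were 51.7% ± 2.67 in the libraries labelled deficient, against 88.8% ± 6.16 in the controls (SD, n = 2 and 3), a difference of -37.1 percentage points. An exact two-sided permutation test gave p = 0.2. This test doubles the smaller tail p over the 10 splits of 2 against 3 libraries, so 0.2 is the smallest p it can give. It therefore cannot pass 0.05 with this design. Cdkn1a held 20.8% and 34.5% of the sum in the libraries labelled deficient, against 0.0826%, 10.2% and 6.34% in the controls. Cdkn1b held 29.4% and 11.9% in the libraries labelled deficient, against 4.79%, 7.02% and 5.36% in the controls. Each inhibitor thus had shares that did not overlap between groups, with Cdkn1c smaller and the other 2 larger in the libraries labelled deficient. These are not separate results, because within a library a smaller Cdkn1c share makes the other 2 shares larger together. The summed Cip/Kip level was 30.6 and 35.4 FPKM in the libraries labelled deficient, against 46.3, 50.1 and 54.6 FPKM in the controls, so the higher Cdkn1a and Cdkn1b did not make up for the lower Cdkn1c in that sum.

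**Figure D3:**
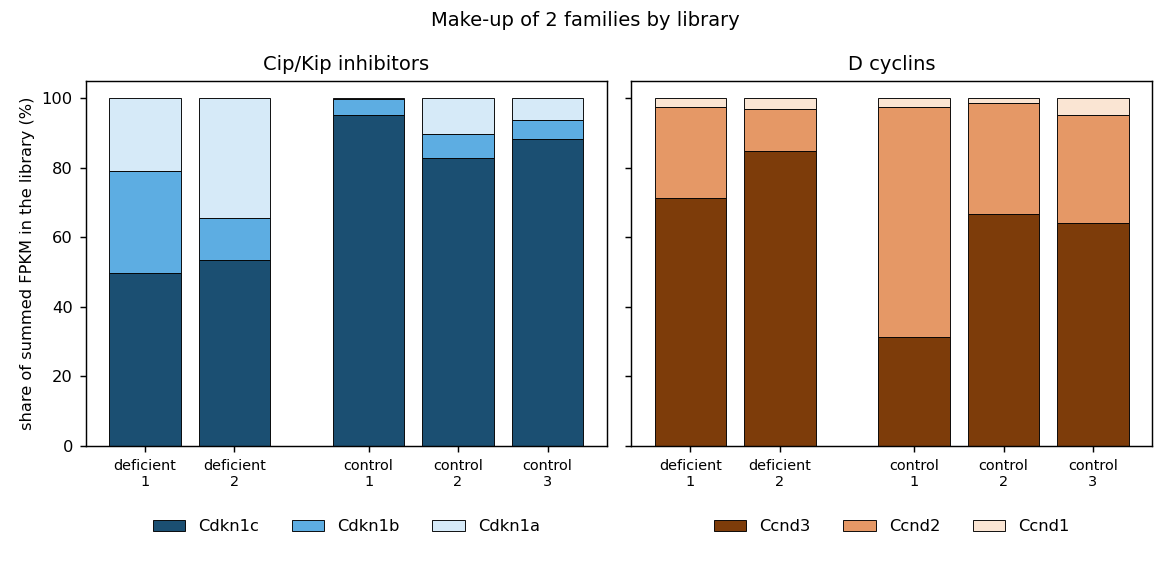
Share of the summed FPKM held by each Cip/Kip inhibitor (left) and each D cyclin (right) in every library, in percent. Cdkn1c held 49.8% and 53.6% of the Cip/Kip sum in the libraries labelled deficient, against 82.8% or more in each control. Ccnd2 held 66.3% of the D cyclin sum in control replicate 1 and 32.1% or less in every other library.

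The sequences before the start sites of Cdkn1a and Cdkn1b are shown because these were the inhibitors above every control, and that of Cdk4 because it was the most abundant member on average over the 5 libraries. They are the 250 bases upstream of each start in RefSeq on GRCm38.p6, a later build than the mm9 of the deposited values. The promoter table matched 7 of the 10 genes. Cdkn1c, Ccnd1 and Ccnd2 had no entry. Capitals mark matches on either strand to a RUNX site (TGTGGT or TGCGGT), a TCF site (CTTTGA), a HES N-box (CACNAG), an E-box (CACGTG) or a GC box (GGGCGG). RUNX, TCF and HES factors are known partners of TLE proteins, E-boxes are bound by MYC with MAX, and GC boxes by SP family factors.
Cdkn1a, upstream start, chr17:29090729-29090978, plus strand: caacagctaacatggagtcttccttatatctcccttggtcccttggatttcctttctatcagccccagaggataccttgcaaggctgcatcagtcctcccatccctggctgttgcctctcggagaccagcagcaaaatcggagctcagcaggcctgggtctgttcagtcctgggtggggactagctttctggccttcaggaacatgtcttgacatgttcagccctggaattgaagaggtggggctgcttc
Cdkn1a, downstream start, chr17:29093519-29093768, plus strand: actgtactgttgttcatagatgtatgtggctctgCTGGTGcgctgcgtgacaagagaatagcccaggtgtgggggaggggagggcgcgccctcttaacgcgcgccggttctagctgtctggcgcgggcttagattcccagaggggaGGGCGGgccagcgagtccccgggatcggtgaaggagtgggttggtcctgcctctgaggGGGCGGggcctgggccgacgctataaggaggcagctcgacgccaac
Cdkn1b, chr6:134920151-134920400, plus strand: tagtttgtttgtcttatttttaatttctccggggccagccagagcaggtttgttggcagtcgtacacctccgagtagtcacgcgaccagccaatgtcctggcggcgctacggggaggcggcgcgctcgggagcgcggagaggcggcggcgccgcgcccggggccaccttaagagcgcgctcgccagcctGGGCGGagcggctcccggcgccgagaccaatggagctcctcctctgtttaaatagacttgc
Cdk4, chr10:127063285-127063534, plus strand: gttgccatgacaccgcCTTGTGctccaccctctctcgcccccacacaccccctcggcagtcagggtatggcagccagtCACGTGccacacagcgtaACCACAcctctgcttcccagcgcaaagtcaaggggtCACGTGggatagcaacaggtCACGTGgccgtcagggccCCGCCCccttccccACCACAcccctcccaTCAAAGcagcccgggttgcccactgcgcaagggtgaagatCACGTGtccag

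The upstream Cdkn1a window held none of these motifs, and the downstream one held 1 HES N-box and 2 GC boxes. The Cdkn1b window held 1 GC box and no other match. The Cdk4 window held 4 E-boxes, 2 RUNX sites, 1 TCF site, 1 HES N-box and 1 GC box. Among all 32851 promoter windows of this length, 18.6% held a RUNX site, 13.8% a TCF site, 36.7% a HES N-box, 6.02% an E-box and 32.7% a GC box. No marked motif overlapped another in the printed windows. A match is a run of letters and not a measured binding site.

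Of the INK4 inhibitors only Cdkn2c, which encodes p18, was measured. It was at 32.3 and 19.4 FPKM in the libraries labelled deficient, against 14.5, 8.92 and 21.6 FPKM in the controls. Deficient-labelled replicate 2 lay below control replicate 3, so the groups overlapped. The log2 fold change was 0.78 (SE 0.53, 95% CI -0.45 to 2.02; limma, adjusted p = 0.713). It was 0.43 without deficient-labelled replicate 1 and 0.48 without control replicate 2. With Cdkn2c added, the 4 measured inhibitors summed to 62.9 and 54.8 FPKM in the libraries labelled deficient, against 60.7, 59.0 and 76.2 FPKM in the controls, and these sums overlapped. In deficient-labelled replicate 1, Cdkn2c alone was slightly above the summed Cip/Kip level of 30.6 FPKM.

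Among the D cyclins, Ccnd2 and Ccnd3 lay in opposite directions, and 1 library gave most of each difference. Ccnd2, the D cyclin induced by cytokines in blood cells, was at 81.0 and 67.2 FPKM in the libraries labelled deficient, against 492, 103 and 92.2 FPKM in the controls. Control replicate 1 stood far above the other two, and the deficient-labelled values lay 11.2 FPKM below the lowest control. The log2 fold change was -1.17 (SE 0.68, 95% CI -2.76 to 0.42; limma, adjusted p = 0.67). Without control replicate 1 it was -0.40 (limma, adjusted p = 0.786).

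Ccnd3, the D cyclin with broad roles in blood cell expansion, was at 223 and 472 FPKM in the libraries labelled deficient, against 232, 215 and 192 FPKM in the controls. Only deficient-labelled replicate 2, the library with the highest granulocyte and erythroid marker sums, lay above the controls. The log2 fold change was 0.61 (SE 0.35, 95% CI -0.21 to 1.42; limma, adjusted p = 0.668), and it was 0.07 without that library and 1.15 without deficient-labelled replicate 1. In GENCODE M21, exons of Ccnd3 overlap those of Bysl, a ribosome biogenesis gene on the opposite strand. Bysl was listed at 0 in deficient-labelled replicate 2, at 28.5 FPKM in replicate 1, and at 26.8, 24.5 and 21.5 FPKM in the controls. How overlapping reads were assigned is not given in the sources used here, and a listed 0 can be a failed estimate. Whether the overlap bears on the Ccnd3 value of that library was not tested.

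Ccnd1, a minor D cyclin in these cells, was at 8.06 and 17.1 FPKM in the libraries labelled deficient, against 18.2, 3.94 and 14.6 FPKM in the controls. The groups overlapped (log2 fold change 0.17, SE 0.75, 95% CI -1.57 to 1.92; limma, adjusted p = 0.962), and leaving out 1 library turned the direction in some runs (-0.43 to 0.67). Ccnd1 held 2.58% and 3.08% of the summed D cyclin FPKM in the libraries labelled deficient, against 2.45%, 1.22% and 4.88% in the controls (difference of means -0.0192 percentage points, exact two-sided permutation p = 1). Ccnd3 held 71.5% and 84.8% of that sum in the libraries labelled deficient, against 31.3%, 66.7% and 64.2% in the controls. Ccnd2 held 26.0% and 12.1% in the libraries labelled deficient, against 66.3%, 32.1% and 30.9% in the controls. The shares of Ccnd2 and Ccnd3 did not overlap between groups. The distance from deficient-labelled replicate 1 to the nearest controls was small beside the spread within the controls. With Ccnd1 so small a part, the Ccnd2 and Ccnd3 shares nearly mirror each other and are not separate results. The FPKM of Ccnd3 itself overlapped between groups. The summed D cyclin level was 312 and 556 FPKM in the libraries labelled deficient, against 743, 322 and 299 FPKM in the controls, and overlapped.

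The kinases overlapped between groups. Cdk4 was at 431 and 248 FPKM in the libraries labelled deficient, against 393, 446 and 440 FPKM in the controls. Deficient-labelled replicate 1 lay within the controls and replicate 2 below them (log2 fold change -0.38, SE 0.30, 95% CI -1.07 to 0.32; limma, adjusted p = 0.739). Without replicate 2 the log2 fold change was 0.02, and without replicate 1 it was -0.77. Exons of Cdk4 overlap those of Tspan31, a tetraspanin gene on the opposite strand, which was at 25.4 and 68.7 FPKM in the libraries labelled deficient, against 100.1, 79.6 and 59.0 FPKM in the controls.

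Cdk6, whose protein level is known in human HSCs to set how fast they leave quiescence, was at 38.5 and 48.2 FPKM in the libraries labelled deficient, against 55.7, 50.1 and 19.3 FPKM in the controls. Both deficient-labelled values lay inside the range of the controls, in which replicate 3 was lowest (log2 fold change 0.18, SE 0.50, 95% CI -0.99 to 1.35; limma, adjusted p = 0.942). Without control replicate 3 the log2 fold change was -0.29. Cdk4 exceeded Cdk6 in all 5 libraries, by 11.2-fold and 5.15-fold in the libraries labelled deficient and by 7.05-fold, 8.90-fold and 22.7-fold in the controls. The log2 ratio of Cdk6 to Cdk4 averaged -2.93 in the libraries labelled deficient and -3.49 in the controls (difference 0.57, exact two-sided permutation p = 0.6).

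Set against each other, the summed D cyclins and kinases exceeded the summed inhibitors by 12.4-fold and 15.6-fold in the libraries labelled deficient and by 19.6-fold, 13.9-fold and 9.94-fold in the controls. The log2 ratio of inhibitors to cyclins and CDKs averaged -3.80 in each group, with an SD of 0.23 in the libraries labelled deficient, against 0.49 in the controls (difference 0.0027, exact two-sided permutation p = 1). The ratio of Cdkn1c to Cdk6, put together after their values were seen, was 0.396 and 0.394 in the libraries labelled deficient, against 0.790, 0.829 and 2.49 in the controls. FPKM of these genes says nothing of their protein amounts, which for p27 and the cyclins depend strongly on degradation.

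The rest of the G1/S machinery was measured for 22 of 24 listed genes, and none passed. Of these, 14 had positive and 8 negative log2 fold changes (median 0.32), and groups did not overlap for 4 in the higher (18.2%, beside 10.2% of all genes) and 2 in the lower direction (9.09%, beside 15.9%). The list median was 0.02 without control replicate 1. Ccne1, the cyclin E that activates CDK2 after the D cyclins have acted, was at 19.5 and 33.9 FPKM in the libraries labelled deficient, against 11.5, 13.4 and 13.0 FPKM in the controls (log2 fold change 0.97, and 0.59 without deficient-labelled replicate 2; limma, adjusted p = 0.621). Rb1, the retinoblastoma gene, was at 3.87 and 2.66 FPKM in the libraries labelled deficient, against 0, 0.427 and 0.892 FPKM in the controls (limma, adjusted p = 0.635). E2f5, a repressive E2F, was at 5.66 and 4.68 FPKM in the libraries labelled deficient, against 44.4, 15.2 and 10.3 FPKM in the controls (log2 fold change -1.72, and -1.14 without control replicate 1; limma, adjusted p = 0.564). Cdc37, the co-chaperone that loads CDK4 onto HSP90, was at 227 and 103 FPKM in the libraries labelled deficient, against 290.4, 266 and 267 FPKM in the controls (log2 fold change -0.84, and -0.27 without deficient-labelled replicate 2; limma, adjusted p = 0.586). For Ccne1, Rb1, E2f5 and Cdc37 the groups did not overlap. Tfdp1, the dimer partner of E2F proteins, was at 181 and 122 FPKM in the libraries labelled deficient, against 90.2, 135 and 117 FPKM in the controls (limma, adjusted p = 0.739).

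Genes that control the turnover of p27 and the D cyclins were split evenly by direction. Of 17 listed, 16 were tested, 8 had positive and 8 negative log2 fold changes (median -0.04), and none passed. Only Rnf123, a ubiquitin ligase subunit for p27, had groups that did not overlap, beside 10.2% of all tested genes in the higher direction. It was at 31.9 and 29.9 FPKM in the libraries labelled deficient, against 25.7, 18.1 and 22.7 FPKM in the controls (limma, adjusted p = 0.744). Cks1b, the cofactor by which SKP2 recognises p27, was at 269 and 338 FPKM in the libraries labelled deficient, against 379, 321 and 303 FPKM in the controls (limma, adjusted p = 0.907). Cul1 and Fbxo31, a cullin scaffold and an F-box protein for cyclin D1, had log2 fold changes of 0.58 and 0.77, and their groups overlapped. Without control replicate 2 these were 0.24 and 0.51. Rbx1, the RING subunit of these ligases, was at 173 and 86.9 FPKM in the libraries labelled deficient, against 101, 805 and 114 FPKM in the controls, with 1 control far above the rest.

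Transcriptional regulators known to act on members were tested for 18 of 22 listed symbols, 9 with positive and 9 with negative log2 fold changes (median -0.04, and -0.23 to 0.26 when 1 library was left out), and none passed. Max, the dimer partner of MYC, was at 26.2 and 18.1 FPKM in the libraries labelled deficient, against 8.92, 11.5 and 15.6 FPKM in the controls (log2 fold change 0.84; limma, adjusted p = 0.672). Myc was at 192 and 139 FPKM in the libraries labelled deficient, against 211, 314 and 135 FPKM in the controls (limma, adjusted p = 0.825). Hes1, a TLE-recruiting repressor known to act on Cdkn1b, was at 9.24 and 5.45 FPKM in the libraries labelled deficient, against 6.40, 0.141 and 1.41 FPKM in the controls (limma, adjusted p = 0.686). Smad4, the common mediator of TGF-beta signals that induce Cdkn1c in blood progenitors, was at 0.149 and 2.76 FPKM in the libraries labelled deficient, against 8.19, 2.28 and 4.97 FPKM in the controls (limma, adjusted p = 0.687). Among the 18 tested, Max lay above every control in the libraries labelled deficient, and Trp53, Zbtb17 and Mecom lay below every control. Over all tested genes 10.2% lay above and 15.9% below every control in this way.

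**Figure D4:**
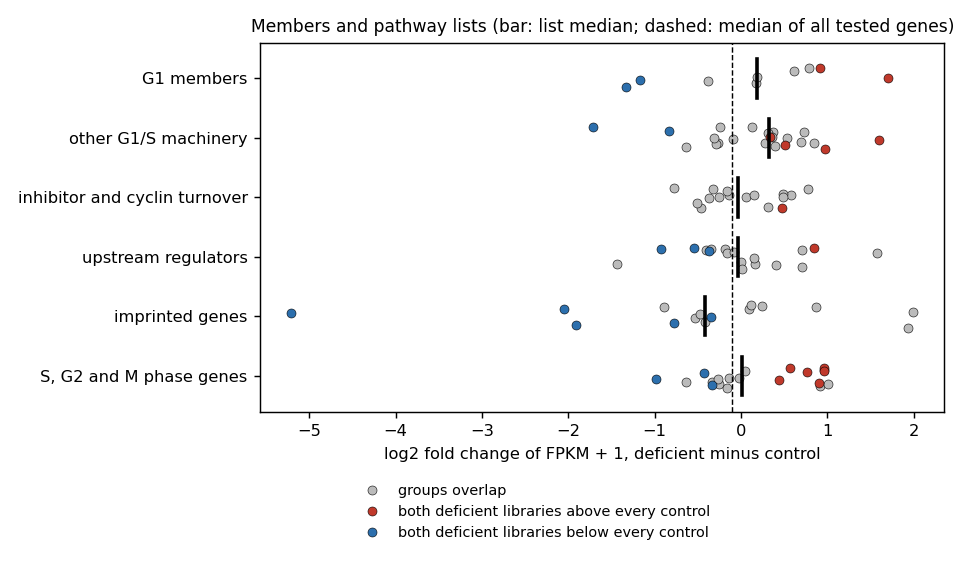
Log2 fold change of FPKM + 1, deficient-labelled minus control, for each tested gene of the members and 5 pathway lists. Red points lie above every control in each deficient-labelled library, blue points below every control, thick bars are list medians, and the dashed line is the median of all tested genes at -0.10. Among the members, 2 points are red and 2 are blue, beside 10.2% and 15.9% of all tested genes.

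Cdkn1c is an imprinted gene, transcribed from the maternal allele, and other imprinted genes were listed with it. Of 30 listed genes, 15 were tested, 6 with positive and 9 with negative log2 fold changes (median -0.42, and -0.13 without deficient-labelled replicate 2). None passed. Ndn came closest, with an adjusted p of 0.0736 (limma). The groups did not overlap for 5, all lower in the libraries labelled deficient, a direction in which 15.9% of all tested genes did not overlap. Without control replicate 2, in which some of these genes were listed at 0, 3 lay higher and 8 lower. In that run 14.9% of all tested genes lay higher and 23.4% lower. Ndn, which encodes the growth suppressor necdin, was at 0.162 and 0.205 FPKM in the libraries labelled deficient, against 55.0, 27.0 and 52.2 FPKM in the controls. Grb10, an adaptor that restrains growth factor signals, was at 17.8 and 15.8 FPKM in the libraries labelled deficient, against 23.7, 35.1 and 30.4 FPKM in the controls (log2 fold change -0.77; limma, adjusted p = 0.641). The most abundant, Gnas, which encodes a G protein subunit, was at 666 and 440 FPKM in the libraries labelled deficient, against 527, 484 and 508 FPKM in the controls.

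The chromosomal neighbours of Cdkn1c did not lie in 1 direction: 4 of the 9 tested had negative and 5 positive log2 fold changes. Of the positive values, those of Cd81 and Tssc4 rest on a listed 0 in control replicate 2, so this split depends on that library. In RefSeq gene order, Slc22a18 and Phlda2 follow Cdkn1c directly and belong to the same imprinted cluster. Slc22a18, a membrane transporter, was at 0.09 and 4.68 FPKM in the libraries labelled deficient, against 6.28, 11.4 and 11.2 FPKM in the controls (log2 fold change -2.05, and -0.86 without deficient-labelled replicate 1 or -3.24 without replicate 2; limma, adjusted p = 0.587). Phlda2, which restrains placental growth, was at 12.4 and 6.02 FPKM in the libraries labelled deficient, against 18.2, 49.3 and 49.4 FPKM in the controls (log2 fold change -1.91; limma, adjusted p = 0.451). Of the 12 protein-coding genes within 6 places of Cdkn1c, 9 were tested, and Slc22a18 and Phlda2 were the only ones whose groups did not overlap. That is 2 of 9 in a direction in which 15.9% of all genes did not overlap. The next gene, Nap1l4, was at 140 and 127 FPKM in the libraries labelled deficient, against 112, 141 and 89.8 FPKM in the controls. Kcnq1ot1, the noncoding RNA of this cluster, was at 1.07 and 0.517 FPKM in the libraries labelled deficient, against 1.24, 1.08 and 1.47 FPKM in the controls, a separation of hundredths of an FPKM. Cd81, further away, was listed at 0 in control replicate 2 and at 383 and 394 FPKM in the other controls, so its positive log2 fold change rests on that listed 0, and without that library it was -0.87.

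**Figure D5:**
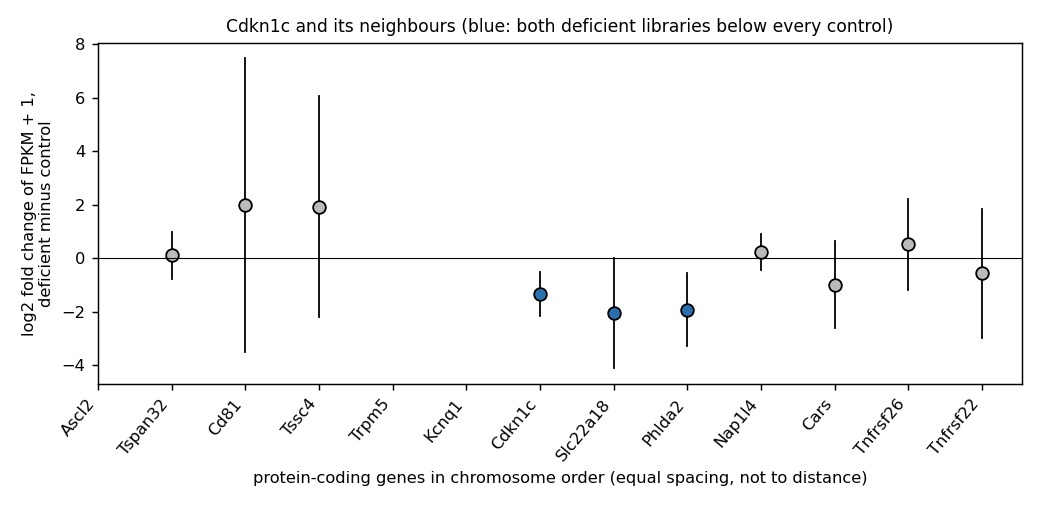
Log2 fold change of FPKM + 1, deficient-labelled minus control, of Cdkn1c and the 6 protein-coding genes on either side in chromosome order, equally spaced, with 95% confidence intervals from limma. Blue points, at -1.34, -2.05 and -1.91, are Cdkn1c, Slc22a18 and Phlda2; genes without a point were not tested.

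Genes of S, G2 and M phase were set beside the G1 genes. Of 20 tested, 10 had positive and 10 negative log2 fold changes (median 0.01), and none passed. The groups did not overlap for 7 in the higher direction (35% of the list, beside 10.2% of all genes) and 3 in the lower (15%, beside 15.9%). Cdk1, the mitotic kinase, was at 83.6 and 63.0 FPKM in the libraries labelled deficient, against 36.4, 37.2 and 37.1 FPKM in the controls (log2 fold change 0.96; limma, adjusted p = 0.487). Ccna2, the cyclin of S and G2 phase, was at 83.6 and 86.4 FPKM in the libraries labelled deficient, against 29.8, 48.4 and 63.7 FPKM in the controls (limma, adjusted p = 0.587). Rrm2, a ribonucleotide reductase subunit, was at 67.9 and 100.4 FPKM in the libraries labelled deficient, against 42.1, 33.8 and 51.4 FPKM in the controls (limma, adjusted p = 0.505). Mcm6, a subunit of the replicative helicase, lay the other way, at 226 and 210.3 FPKM in the libraries labelled deficient, against 244, 282 and 301 FPKM in the controls (limma, adjusted p = 0.726). The 10 genes with negative log2 fold changes were Pcna, every listed Mcm gene, Top2a, Bub1 and Kif11. The 7 that lay above every control were Mki67, Cdk1, Ccna2, Ccnb1, Birc5, Plk1 and Rrm2. The list median thus pools genes that lay in opposite directions. The summed level of the 20 genes was 2008 and 2010.3 FPKM in the libraries labelled deficient, against 1751, 1985 and 1982 FPKM in the controls.

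The genes whose centred log2 profile over the 5 libraries lay nearest to that of Cdkn1c, among 6603 genes averaging 10 FPKM or more, were Plcg1, Camk2a, Hlf, Bdh2 and Sfxn3. Their root-mean-square distances were 0.081, 0.134, 0.137, 0.145 and 0.154 on the log2 scale, beside a median of 0.776 over all genes compared. Hlf, an HSC transcription factor, was at 6.17 and 9.96 FPKM in the libraries labelled deficient, against 24.9, 19.4 and 25.1 FPKM in the controls. Plcg1, a phospholipase of receptor signalling, was at 9.55 and 13.2 FPKM in the libraries labelled deficient, against 27.1, 24.5 and 30.1 FPKM in the controls. These genes were chosen for their likeness to Cdkn1c in the same 5 libraries, so their lower level in the libraries labelled deficient follows from the choice and is no result.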

How the data were processed

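RNA-seq libraries of sorted mouse bone marrow HSCs (2 labelled Tle1/3/4-deficient, 3 control) were grouped and numbered by their titles. The authors deposited 1 table of FPKM per gene symbol. Per the submitters' processing notes, TopHat and edgeR were used on mm9, with no version, role or order. For the annotation, strand setting and overlapping genes, the entry is: not given in the sources used here. Total reads are unknown. Relative depth was read from the commonest ratio of values under 0.3 FPKM between libraries, within 0.5%.

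FPKM were tested on log2(FPKM + 1), with a pseudocount of 1 and a minimum mean of 1 FPKM, in limma 3.58.1 under R 4.3.3. The linear model held the group alone, variances were moderated by eBayes with a mean trend, and two-sided p-values were adjusted by Benjamini and Hochberg over 10570 genes. The pseudocount shrinks differences of low genes. Shares and ratios were compared with exact permutation tests (scipy 1.17.1, Python 3.11.15). The limma fit was tested on simulated data.

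The members, lists and tests were chosen with earlier results of these data known. In each pathway list the genes that passed, the 4 with the lowest p and the 2 with the highest mean were eligible to be named; others were named after their values were seen. Alternatives were the pseudocount, the filter, scaling, eBayes settings, the replicate number as a block, array weights and leaving out each library. Exon overlaps were looked up by symbol in GENCODE M21, and promoters and gene order in RefSeq on GRCm38.p6. A further marker list is not reported here.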

Additional observations from a re-analysis of the deposited data

How the results depend on the processing

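No member passed the threshold under any of the 15 alternatives run. Cdkn1c, Cdkn1a, Cdkn2c, Ccnd2 and Ccnd3 kept their direction in all 15 and Cdkn1b in the 14 that tested it. The log2 fold change of Cdkn1c stayed between -1.49 and -1.01. Leaving out each library in turn gave -0.43 to 0.67 for Ccnd1, -0.77 to 0.018 for Cdk4 and -0.29 to 0.45 for Cdk6, so their directions reversed, as did those of Rbx1 (-1.30 to 0.19), Cks1b (-0.31 to 0.022), Gnas (-0.20 to 0.40), Cd81 (-0.87 to 3.44), Ly6a (-2.80 to 0.58), Ptprc (-0.13 to 0.61) and Vav1 (-0.0050 to 0.22). Gnas was also reversed by quantile normalization (-0.0080). Ndn passed with robust eBayes (adjusted p = 0.0332).

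Over all genes, 2 passed. The count was 0 with a pseudocount of 0.1, without the filter on low values and with array weights, 1 with eBayes without trend, 4 with a pseudocount of 10 and with median-of-ratios scaling, 5 with robust eBayes, and 0 to 5 when each library was left out. A run that keeps 1 deficient-labelled library assumes that it varies like the controls. With the replicate number as a block 22 genes passed. In that fit Cdk6 was at -0.29, as without control replicate 3, which has no partner. The labels do not say that a number marks a shared animal or day. Deviations of same-numbered libraries from their group means correlated at 0.035 and 0.0069. These are not separate checks, because the deviations of the 2 deficient-labelled libraries from their own mean are mirror images. The block is therefore no evidence of pairing.

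Leaving out each library gave a difference of -40.0 to -33.9 percentage points for the Cdkn1c share, -0.83 to 0.99 for the Ccnd1 share (0.99 with the block), and -0.24 to 0.25 for the log2 ratio of inhibitors to cyclins and CDKs. The Cdk6 to Cdk4 log2 ratio differed by 0.0077 to 1.13. In a check chosen after seeing the data, groups that did not overlap were counted with all libraries and with each left out in turn. The counts were 4 to 6 members, 5 to 11 imprinted genes, 10 to 19 genes of S, G2 and M phase and 6 to 14 G1/S genes. Over all tested genes, 14.9% to 26.7% lay higher and 22.5% to 33.5% lower when 1 library was left out. Fewer libraries make non-overlap easier by construction. The causes of these changes were not tested.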
